A study of Mus musculus with 18 samples.

Results

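Wapl, the protein that releases cohesin from chromosomes, was followed at the RNA level together with its partners Pds5a and Pds5b, the cohesin ring genes Smc1a, Smc3, Rad21, Stag1 and Stag2, the loader gene Nipbl and the boundary factor gene Ctcf. These 10 genes were chosen by symbol from the 46073 genes of the count table, where Wapl stands under its older symbol Wapal. All 10 passed the filter on low counts, as did 18447 genes in all.

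Cohesin is a ring built from Smc1a and Smc3, which are closed by Rad21, and bound by either Stag1 or Stag2. Nipbl, with its partner Mau2, loads the ring onto DNA and drives the extrusion of loops. Wapl, helped by Pds5 proteins, opens the ring and lets it go, and Ctcf bound to DNA halts extruding rings, so that loops end at its sites. In dividing T cells the same ring also holds sister chromatids together until Rad21 is cut.

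Total RNA was sequenced from mouse splenic T cells on day 7 after haematopoietic stem cell transplantation, in 4 groups of 3 libraries: allogeneic KO, allogeneic WT, syngeneic KO and syngeneic WT. KO and WT are the genotypes of the donor T cells for Wapl as labelled, and how far Wapl RNA differed between them is given below with its values. The labels name female C57BL/6 donors carrying CD45.2, 8 to 12 weeks old, and give for KO donors neither a sex of their own nor the Cre line or the deleted exons. Allogeneic recipients were CByJ.SJL(B6)-Ptprca/J mice on a BALB/c background, which are mismatched with the donors, so that donor T cells meet foreign antigens. They received 8 Gy in a split dose and 1000000 donor T cells. Syngeneic recipients were B6.SJL-Ptprca Pepcb/BoyJ mice, which received 9.5 Gy and 8500000 donor T cells. Both also received 5000000 bone marrow cells depleted of T cells. The dose of radiation and of T cells thus differed with the transplant type, and their parts cannot be told apart. Each library pooled the T cells of 2 to 4 mice, and the sort kept live donor cells by CD45.2 and T cells by CD3. The labels call the 3 libraries of a group separate biological triplicates. The cell type field of syngeneic KO libraries names the allogeneic recipient strain, and these libraries were grouped by transplant type.

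Totals ran between 45965700 and 89007100 counts per library. The 10 genes were well covered, with between 4723 and 34217 counts per library each. All 12 T cell markers examined were above 1 CPM (counts per 1000000 counts of a library, here scaled by TMM, the trimmed mean of M-values) in every group. Other signals moved with the groups. Summed T cell markers were at 4921 to 7237 CPM in allogeneic KO, 5528 to 6102 CPM in allogeneic WT, 4315 to 6734 CPM in syngeneic KO and 3744 to 5117 CPM in syngeneic WT. Summed B cell markers were at 473 to 3243 CPM in allogeneic KO, 1246 to 1862 CPM in allogeneic WT, 544 to 2809 CPM in syngeneic KO and 578 to 1125 CPM in syngeneic WT. Summed erythroid markers stood at 20.7 to 130.5 CPM in the 9 libraries of the other groups, against 2250 to 5228 CPM in syngeneic WT. Summed myeloid markers were at 41.4 to 302 CPM in allogeneic KO, 300 to 488 CPM in allogeneic WT, 12.0 to 75.0 CPM in syngeneic KO and 219 to 655 CPM in syngeneic WT. Genes that collect ribosomal RNA took 16.9 ± 1.01% of counts in allogeneic KO, 11.8 ± 5.22% in allogeneic WT, 26.7 ± 4.68% in syngeneic KO and 21.7 ± 1.48% in syngeneic WT (SD, n = 3 each). In replicate order, summed Y-linked genes were at 31.4, 70.1 and 138 CPM in allogeneic KO. They were at 32.3, 99.4 and 116 CPM in syngeneic KO. Summed B cell markers rose in the same replicate order in both KO groups, and the cause was not tested. In the 6 WT libraries summed Y-linked genes were at only 0.733 to 1.75 CPM. Sex of the cells and genotype therefore cannot be told apart, and 2 of the genes followed here, Smc1a and Stag2, are on the X chromosome. On the second principal component, 1 library lay away from the rest: syngeneic KO replicate 1, at 99.9 against 30.1 for the next library. Leaving it out changed the call of Wapl, given with that result, both in syngeneic cells and on average, and no other call within the 10 genes.

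Promoter sequences were read from RefSeq on GRCm38.p6, whose table held 7 of the 10 genes, all but Rad21, Stag2 and Nipbl. They are shown because several of the promoters hold the same short motifs, which were chosen after the sequences had been read, so no test is given. YY1 is a zinc finger factor found at many promoters and at the anchors of enhancer loops. The motif of YY1, AANATGGCG, was searched on both strands over 250 bases before to 50 bases after each start and lay in 4 of the 7 promoters. The same letters lay in 5.88% of 9815 promoters of tested genes averaging 5 CPM or more and in 2.38% of all 32841 promoters. Each line gives 30 bases on the gene's own strand, with the matched letters in capitals, as AANATGGCG or as its reverse complement.
Smc3, chr19:53600384-53600413, plus strand: tccgcggccgcCGCCATTTTgtttggccac
Stag1, chr9:100643235-100643264, plus strand: gagaagctctaAAAATGGCGggcggcaacc
Ctcf, chr8:105636536-105636565, plus strand: caccgcgccgcCGCCATTTTgtgtccgagc
Pds5b, chr5:150673778-150673807, plus strand: gctgctcttggCGCCATTTTgaagcggaga

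E2F factors bind promoters of genes that cycling cells use in S phase. The E2F motif TTGGCGC, searched on both strands, lay in 3 of the 7 promoters, against 4.42% of such promoters and 2.45% of all promoters. In Pds5a the motif lies on both strands as 1 palindrome. In Ctcf it occurs in 2 places, and in Pds5b it overlaps the YY1 match shown above. Matched letters are in capitals.
Pds5a, chr5:65698328-65698357, minus strand: cgcgggcaggtcTTGGCGCCAAacgggtgg
Ctcf, chr8:105636373-105636402, plus strand: ggcttttgaaagTTGGCGCccggggccgcc
Ctcf, chr8:105636405-105636434, plus strand: ccatgctgccctGCGCCAAcccctcccctc
Pds5b, chr5:150673773-150673802, plus strand: gcggagctgctcTTGGCGCcattttgaagc

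Levels were compared between genes per kilobase of merged exons. Rad21, which closes the ring, had the highest length-scaled level, with a mean of 81.8 CPM per kilobase over the 12 libraries, above 97.7% of 18312 tested genes with an annotated length. It ranked first of the 10 genes in each of the 12 libraries. Ctcf and Smc1a followed at 41.3 and 40.8 CPM per kilobase, and Ctcf was the higher of the pair in 6 of 12 libraries. Wapl, Smc3 and Nipbl formed a middle group at 23.5, 21.0 and 20.9 CPM per kilobase. Wapl stood above Smc3 in 8 of 12 libraries and Smc3 above Nipbl in 6 of 12, so the order within this group was not stable across libraries. Stag2, at 16.6 CPM per kilobase, was under Nipbl in 11 of 12 libraries. Pds5a had 12.2, Pds5b 9.88 and Stag1 9.06 CPM per kilobase, and Pds5b was above Stag1 in 10 of 12 libraries.

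The places of the lower genes depended on which length was used. Pds5a is annotated with 19335 bases of merged exons but 8934 bases in its longest coding transcript. With the latter, a choice made after seeing the data, it moved to rank 4 at 26.5 CPM per kilobase, while Rad21, Ctcf and Smc1a kept ranks 1 to 3. Stag2, the form of the Stag subunit on the X chromosome, was above Stag1 on either length, at 22.2 against 17.3 CPM per kilobase of longest coding transcript. On that length 2 orders given above reversed. Stag2 had a higher mean than Nipbl, at 20.9, and Stag1 a higher mean than Pds5b, at 13.1 CPM per kilobase.

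**Figure D1:**
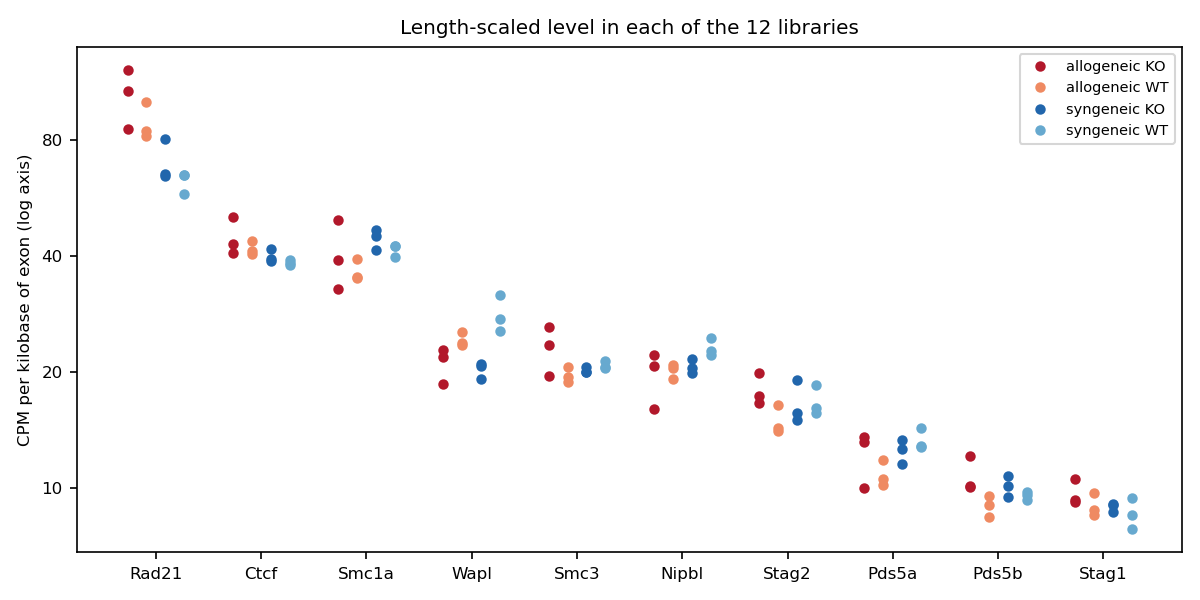
Length-scaled level (CPM per kilobase of merged exons, log axis) of the 10 genes in each of the 12 libraries, coloured by group. Rad21 lies above the other 9 genes in every library, with a mean of 81.8, and Stag1 has the lowest mean, 9.06.

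Most of the 10 genes varied little beside all genes averaging 5 CPM or more, and no comparison was made with genes of like level alone. Among 10052 genes averaging 5 CPM or more, the SD of log2 CPM over the 12 libraries put Stag1 at the 3.46th percentile and Ctcf at the 3.67th. Pds5b was at the 6.97th, Smc3 at the 7.12th, Nipbl at the 12.0th, Stag2 at the 14.5th, Pds5a at the 18.1st and Smc1a at the 19.5th. Wapl, at the 33.6th percentile, and Rad21, at the 62.6th, varied most. The highest library exceeded the lowest 2.10 times for Rad21, 1.71 times for Wapl and 1.33 times for Ctcf. Allogeneic KO replicate 1 was the highest library for 6 of the 10 genes, and allogeneic KO replicate 2 the lowest for 4. Replicate 1 also had the highest sum of proliferation markers, 5546 CPM, against 3065 to 4190 CPM in the other 11 libraries, and the part of this in the gene levels was not tested.

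**Figure D2:**
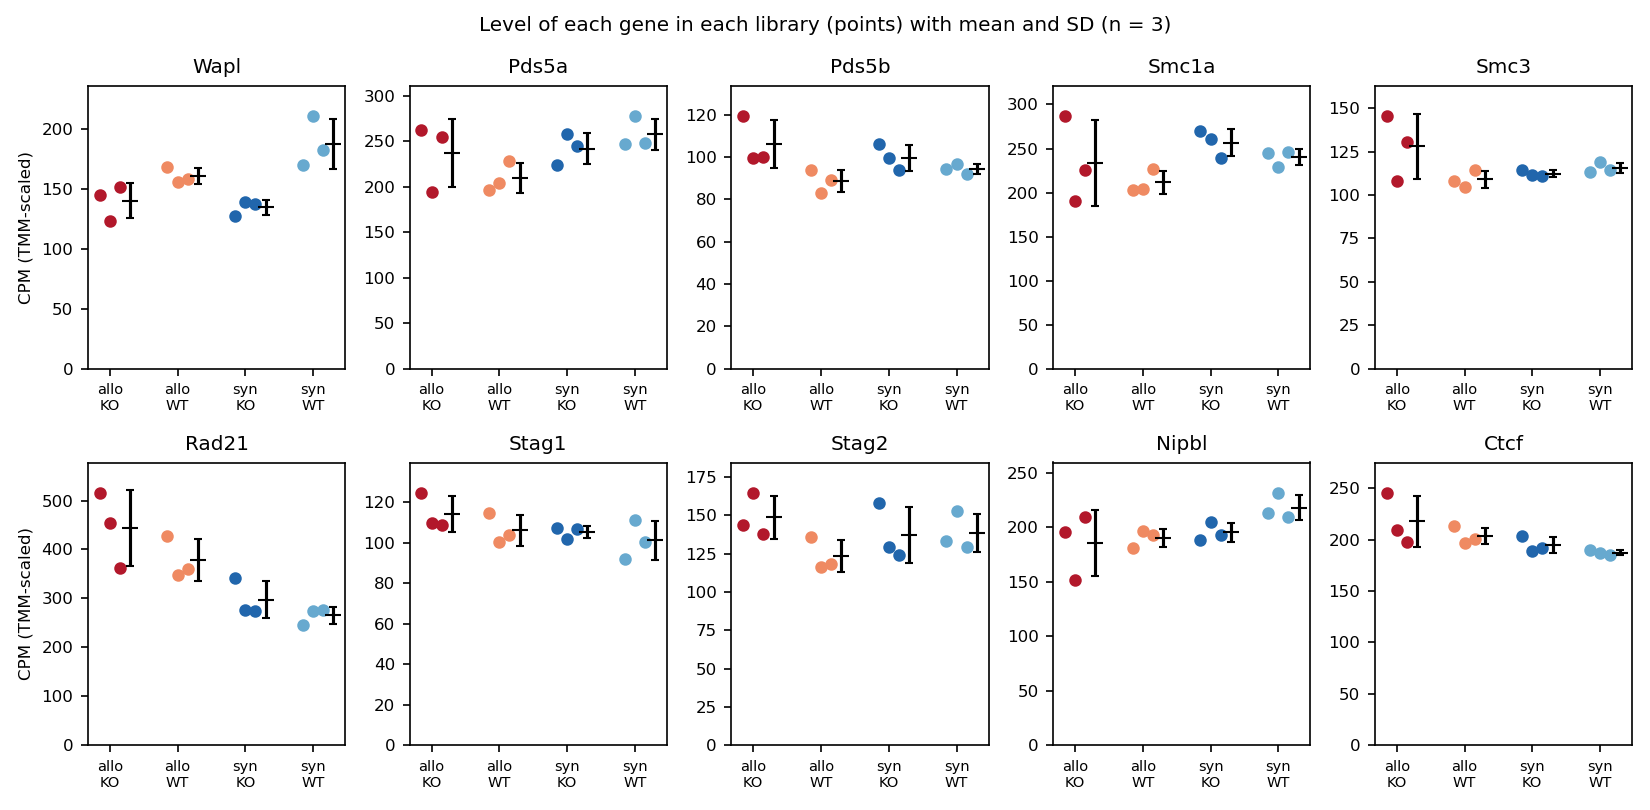
CPM of each of the 10 genes in the 12 libraries (points), with group mean and SD (bars, n = 3), in the order allogeneic KO, allogeneic WT, syngeneic KO, syngeneic WT. Wapl lies lowest in KO, at 140.0 ± 14.6 CPM in allogeneic KO and 135 ± 6.29 CPM in syngeneic KO, and Rad21 is higher in both allogeneic groups than in both syngeneic groups.

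The comparison of KO with WT asked how far the RNA of the targeted gene and of its partners differed between genotypes. Wapl (ENSMUSG00000041408, GRCm38 chromosome 14, 34673928 to 34747983, plus strand) had 127, 139 and 137 CPM in syngeneic KO, against 170.1, 211 and 183 CPM in syngeneic WT. The 3 KO libraries were all below the 3 WT libraries. In the allogeneic setting it had 145, 124 and 151 CPM in KO and 169, 156 and 158 CPM in WT, again with all KO libraries lower, but with a gap of a few CPM between the nearest libraries. The fold of KO over WT was 0.716 in syngeneic cells, with a 95% interval of 0.604 to 0.850, and 0.870 in allogeneic cells, with an interval of 0.733 to 1.03. A large part of the signal at this gene was thus present in cells labelled KO. The counts cover the whole gene, and which exons they come from was not tested, so these values do not measure how much intact transcript was left. In bulk samples, fewer cells carrying a transcript and less of it per cell cannot be told apart.

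By edgeR's quasi-likelihood test with Benjamini-Hochberg adjustment over all 18447 genes, Wapl fell in syngeneic KO (log2 fold change −0.48 ± 0.11 SE, adjusted p = 0.0368). It was the 1 gene of the 10 called in this comparison, where 3.37% of all tested genes were called and 2.63% were called lower. In allogeneic cells the log2 fold change was −0.20 ± 0.11 (adjusted p = 0.963), and 0.0542% of all genes were called. Averaged over both settings Wapl fell by 0.34 ± 0.08 on the log2 scale (adjusted p = 0.0495), where 2.09% of all genes were called and 1.49% called lower. The difference between the settings was 0.28 ± 0.16 (adjusted p = 1.00), so a smaller fall in allogeneic cells was not shown. The syngeneic call lay close to the threshold. It was lost at an adjusted p of 0.0900, 0.114 or 0.0869 without KO replicate 1, 2 or 3, and of 0.198 or 0.110 without WT replicate 2 or 3. In syngeneic KO and WT, deviations from the group mean correlated at r between 0.170 and 0.545 for same-numbered libraries. For differently numbered libraries r ran between −0.501 and 0.363. With the replicate number as a block, the adjusted p of Wapl was 0.0602 over 12 libraries and 0.00810 within the 6 syngeneic libraries. Without the block the fit of those 6 libraries gave 0.0656, and the fit without a filter on low counts 0.0515, neither under the threshold. DESeq2 gave 0.00194. The average over both settings was lost in 10 of 12 fits that left out 1 library, all but those without allogeneic KO replicate 3 or syngeneic WT replicate 1, at adjusted p up to 0.145, and with the block at 0.0715. Erythroid and myeloid markers were lower in syngeneic KO, with 9 of 11 and 7 of 13 tested markers called, and all 12 T cell markers had a log2 fold change above 0, with 0 called. Their part in the fall of Wapl was not tested.

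Pds5a and Pds5b, the partners through which Wapl acts on the ring, were not called between KO and WT. Pds5b (ENSMUSG00000034021, chromosome 5, 150673739 to 150810690, plus strand) had 119, 99.4 and 100.0 CPM in allogeneic KO, against 93.7, 83.1 and 89.05 CPM in allogeneic WT, with no overlap. Its log2 fold change was 0.26 ± 0.10 (adjusted p = 0.963). In syngeneic cells it had 106, 99.5 and 93.7 CPM in KO and 94.5, 96.4 and 91.7 CPM in WT, and these groups overlapped. Pds5a (ENSMUSG00000029202, chromosome 5, 65605721 to 65698273, minus strand) had 263, 194 and 255 CPM in allogeneic KO and 197, 204 and 229 CPM in allogeneic WT. It had 223, 258 and 245 CPM in syngeneic KO and 247, 278 and 248 CPM in syngeneic WT, and the genotypes overlapped in both settings. Exons of 2 unnamed genes lie on the opposite strand of Pds5a, at means of 5.70 and 1.91 CPM, and without a stated strand setting their reads cannot be told apart from its own.

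The ring subunits showed no called difference between genotypes either. Smc1a (ENSMUSG00000041133, X chromosome, 152016428 to 152062694, plus strand) and Smc3 (ENSMUSG00000024974, chromosome 19, 53600398 to 53645833, plus strand) are the ATP-binding arms of the ring. Smc1a had 287, 190.1 and 225 CPM in allogeneic KO and 203, 204 and 227 CPM in allogeneic WT. In syngeneic cells Smc1a had 270.0, 261 and 239.7 CPM in KO and 245, 229 and 246 CPM in WT. The KO and WT libraries overlapped in both settings. Smc3 had 145, 108 and 131 CPM in allogeneic KO and 108, 105 and 114 CPM in allogeneic WT. In syngeneic cells Smc3 lay between 111 and 115 CPM in KO and between 114 and 119 CPM in WT. Its log2 fold changes were 0.23 ± 0.11 in allogeneic cells and −0.04 ± 0.11 in syngeneic cells, with adjusted p of 0.963 and 0.885.

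Rad21 (ENSMUSG00000022314, chromosome 15, 51962240 to 51991747, minus strand), the subunit cut by separase at anaphase, had 516, 454 and 362 CPM in allogeneic KO and 427, 348 and 359 CPM in allogeneic WT. It had 341, 277 and 274 CPM in syngeneic KO and 246, 275 and 276 CPM in syngeneic WT. KO and WT libraries overlapped in both settings, with log2 fold changes of 0.23 ± 0.15 and 0.16 ± 0.15 (adjusted p = 0.963 and 0.637, allogeneic then syngeneic).

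Stag2 (ENSMUSG00000025862, X chromosome, 42149317 to 42277185, plus strand) had 144, 165 and 138 CPM in allogeneic KO, against 136, 116 and 118 CPM in allogeneic WT, with no overlap. Its log2 fold change was 0.27 ± 0.13 (adjusted p = 0.963). In syngeneic cells it had 158, 129.7 and 124 CPM in KO and 133, 153 and 129.6 CPM in WT, which overlapped. Stag1 (ENSMUSG00000037286, chromosome 9, 100597798 to 100959375, plus strand), the alternative subunit, had 125, 109.8 and 109 CPM in allogeneic KO and 115, 100.2 and 104 CPM in allogeneic WT. Stag1 ran between 102 and 107 CPM in syngeneic KO and between 92.1 and 111 CPM in syngeneic WT.

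Nipbl (ENSMUSG00000022141, chromosome 15, 8290617 to 8444463, minus strand) had 188, 204 and 193 CPM in syngeneic KO, against 214, 232 and 209 CPM in syngeneic WT, with all KO libraries lower. Its log2 fold change was −0.16 ± 0.12 (adjusted p = 0.575). In allogeneic cells it had 196, 152 and 209 CPM in KO and 181, 196 and 193 CPM in WT, with overlap. Mau2, which binds Nipbl in the loader, averaged 97.0 ± 6.54 CPM in syngeneic KO and 109 ± 2.15 CPM in syngeneic WT (SD, n = 3), with a log2 fold change of −0.16 ± 0.10 and an adjusted p of 0.496.

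Ctcf (ENSMUSG00000005698, chromosome 8, 105636568 to 105682922, plus strand) had the lowest coefficient of variation of any of the 10 genes in any group, 1.36% in syngeneic WT. Exons on the opposite strand of Ctcf and Stag2 belong to genes at means of 0.104 CPM or less. It had 246, 209 and 198 CPM in allogeneic KO and 213, 197 and 201 CPM in allogeneic WT. It had 203, 189 and 192 CPM in syngeneic KO and 190.0, 187 and 185 CPM in syngeneic WT. Genotypes overlapped in both settings. For Ctcf, the 95% interval of the fold of KO over WT was 0.914 to 1.25 in allogeneic cells. It was 0.890 to 1.22 in syngeneic cells, and changes within these limits were not excluded.

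KO and WT libraries did not overlap for 2 of the 10 genes in syngeneic cells, Wapl and Nipbl, both lower in KO, where 23.3% of all tested genes did not overlap and 10.1% were lower in KO. They did not overlap for 3 of 10 in allogeneic cells, Wapl lower and Pds5b and Stag2 higher, where 7.66% of all tested genes did not, 4.37% lower and 3.29% higher. The median log2 fold change of the 10 genes was 0.16 in allogeneic cells and 0.02 in syngeneic cells, against 0.03 and 0.06 over all tested genes. Without Wapl, the other 9 genes had log2 fold changes of KO over WT between −0.16 and 0.27 in the 2 settings. None of these values changed sign under the other scalings tried, and 5 did when 1 library was left out. They were Stag1, Stag2 and Ctcf in syngeneic cells and Nipbl and Smc1a in allogeneic cells, the last from a log2 fold change of 0.15.

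**Figure D3:**
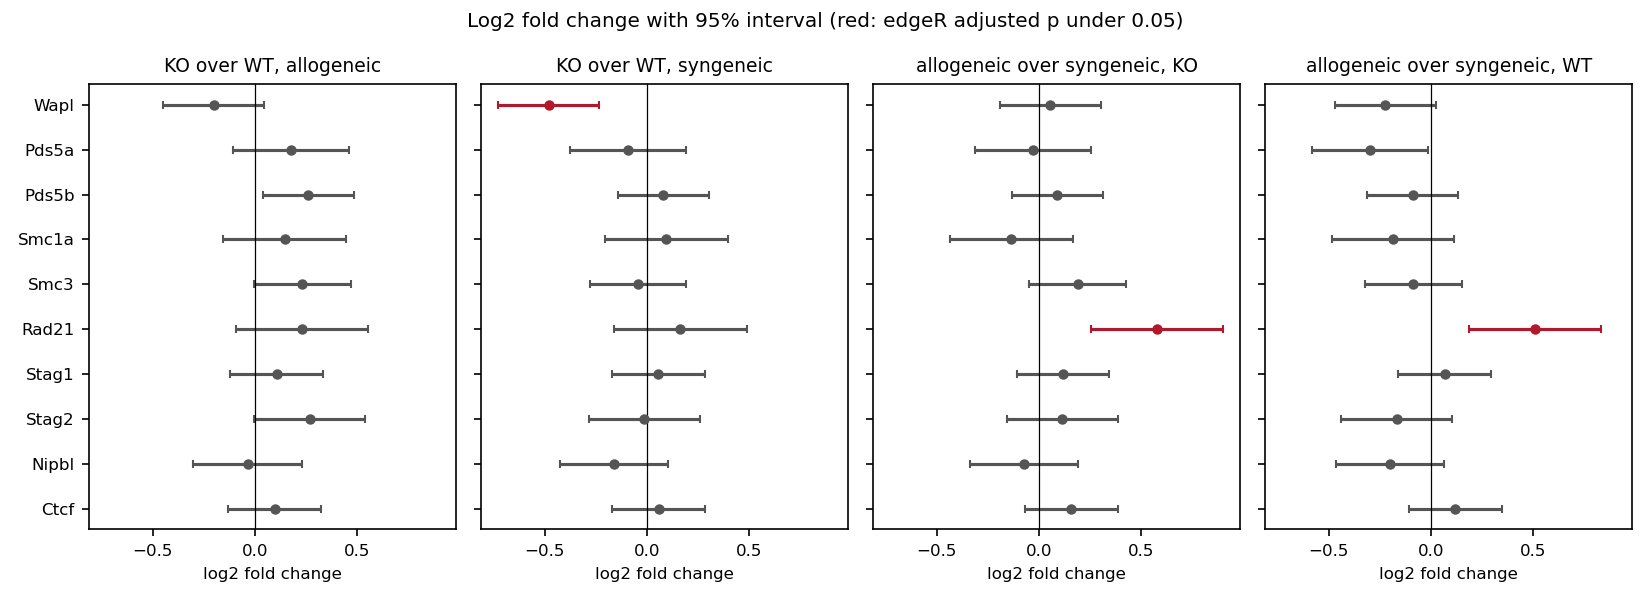
Log2 fold change of the 10 genes in 4 comparisons, with 95% intervals (edgeR, 12 libraries), KO over WT in the left pair of panels and allogeneic over syngeneic in the right pair. Red marks an adjusted p under 0.05: Wapl for KO over WT in syngeneic cells (−0.48), and Rad21 for allogeneic over syngeneic in KO (0.58) and in WT (0.51).

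The comparison of allogeneic with syngeneic recipients asked how the same genes stood in T cells that had met foreign tissue. Rad21 rose in both genotypes. In KO it had 516, 454 and 362 CPM in allogeneic cells, against 341, 277 and 274 CPM in syngeneic cells. In WT it had 427, 348 and 359 CPM in allogeneic cells, against 246, 275 and 276 CPM in syngeneic cells. All allogeneic libraries were above all syngeneic libraries of the same genotype. The log2 fold change was 0.58 ± 0.15 in KO (adjusted p = 0.0135) and 0.51 ± 0.15 in WT (adjusted p = 0.0202). Averaged over genotypes it was 0.54 ± 0.11 (adjusted p = 0.00115), a fold of 1.46 with a 95% interval of 1.24 to 1.71.

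Rad21 was the 1 gene of the 10 called in each of these 3 comparisons. Calls were frequent there, at 24.4% of all tested genes in KO, 32.3% in WT and 46.4% for the average, and 13.2%, 16.4% and 23.2% were called higher. The share of 1 in 10 is thus below that of all genes. The average over genotypes was called under all 18 alternatives tried, with adjusted p between 3.55e-06 and 0.00457. With 1 library left out, the log2 fold change ran from 0.46 to 0.73 in KO and from 0.42 to 0.57 in WT. Some of these fits lost the call within a genotype. In KO it was lost without allogeneic KO replicate 1 (log2 fold change 0.46, adjusted p = 0.0570), and without syngeneic KO replicate 2 or 3 (adjusted p = 0.0627 and 0.0570). It was also lost when the KO groups were fitted alone (adjusted p = 0.0564). In WT it was lost without allogeneic WT replicate 1 (0.42, adjusted p = 0.0845) or syngeneic WT replicate 1 (0.46, adjusted p = 0.0642). Of the 15 proliferation markers, 6 were called higher and 1 lower in allogeneic cells on average. Of the 12 T cell markers, 5 were called higher and 1 lower, with a median log2 fold change of 0.41, and of the 10 B cell markers 4 were called lower. Erythroid markers were called lower for 10 of 11 tested, with a median log2 fold change of −4.62. Within genotypes, 11 of them were called lower in WT and 2 in KO. Myeloid markers were called lower for 2 of 13 and higher for 1 on average. The part of these lists in the rise of Rad21 was not tested. The summed level of the proliferation markers ranged over 3749 to 5546 CPM in allogeneic KO, 3095 to 3904 CPM in allogeneic WT, 3622 to 3884 CPM in syngeneic KO and 3065 to 4190 CPM in syngeneic WT.

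The arms of the ring were not called alongside Rad21. Smc1a had a log2 fold change of allogeneic over syngeneic of −0.16 ± 0.10 on average (adjusted p = 0.199) and Smc3 of 0.05 ± 0.08 (adjusted p = 0.597). Smc1a was called lower, by 0.24 on the log2 scale (adjusted p = 0.0339), without allogeneic KO replicate 1, and Smc3 was called higher in KO (0.34, adjusted p = 0.0203) without allogeneic KO replicate 2. Their 95% intervals for the average fold, 0.773 to 1.04 for Smc1a and 0.924 to 1.16 for Smc3, lie below that of Rad21, which starts at 1.24.

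In WT, allogeneic and syngeneic libraries did not overlap for 6 of the 10 genes, where 55.7% of all tested genes did not, 28.2% higher and 27.5% lower in allogeneic cells. Rad21 and Ctcf were the higher ones. Wapl, Pds5a, Smc1a and Nipbl were lower, with log2 fold changes of −0.22, −0.30, −0.18 and −0.20 and adjusted p between 0.102 and 0.331. Pds5a passed the threshold when the WT groups were fitted alone (adjusted p = 0.0482). In KO, 2 of the 10 genes did not overlap, Rad21 and Stag1, both higher in allogeneic cells, where 33.6% of all tested genes did not overlap and 17.0% were higher. Stag1 had a log2 fold change of 0.12 ± 0.11 there (adjusted p = 0.437). The median of the 10 genes was 0.10 in KO and −0.13 in WT, against −0.02 and −0.03 over all tested genes. The comparisons of KO with WT and of allogeneic with syngeneic cells share their libraries.

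The difference between the KO effects in allogeneic and in syngeneic cells ranged from 0.04 for Ctcf to 0.28 for Stag2 on the log2 scale. These values come from the same 12 libraries and the same scaling, so they are not separate observations. None was called by edgeR, none had an unadjusted p under 0.05 and none was called by DESeq2, and 0.477% of all tested genes were called. The median of the 10 was 0.15, against −0.03 over all tested genes. For 4 genes, Smc1a, Rad21, Stag1 and Ctcf, the value went below 0 when 1 library was left out.

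Ratios of counts between partner genes within a library need no scaling between libraries. The ratio of Nipbl to Wapl, loader over release factor, was 1.32 ± 0.0812 in allogeneic KO and 1.18 ± 0.0986 in allogeneic WT, and 1.45 ± 0.0389 in syngeneic KO and 1.17 ± 0.0802 in syngeneic WT (SD, n = 3 each). It was higher in KO by 0.24 on the log2 scale (two-sided exact permutation test within transplant types, p = 0.01). Wapl itself is the lower term of this ratio. The ratio of Ctcf to Rad21 was 0.495 ± 0.0462 in allogeneic KO and 0.660 ± 0.0553 in syngeneic KO, and 0.541 ± 0.0374 in allogeneic WT and 0.708 ± 0.0571 in syngeneic WT. It was lower in allogeneic cells by a log2 difference of −0.40 (exact permutation test within genotypes, p = 0.005, the smallest that the 400 relabelings can give). The ratio of Smc1a to Smc3 was 1.82 ± 0.135 in allogeneic KO and 2.29 ± 0.110 in syngeneic KO, and 1.94 ± 0.0520 in allogeneic WT and 2.08 ± 0.131 in syngeneic WT. Its log2 difference was −0.22 (exact permutation test, p = 0.015). Adjusted over the 10 ratio tests, each of these 3 p-values was 0.05, at the threshold and not under it, so none was called.

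The ratios of the interchangeable subunits did not pass either. Stag2 over Stag1 was 1.31 ± 0.178 in allogeneic KO, 1.16 ± 0.0212 in allogeneic WT, 1.30 ± 0.157 in syngeneic KO and 1.37 ± 0.0791 in syngeneic WT. Pds5a over Pds5b was 2.23 ± 0.302 in allogeneic KO, 2.37 ± 0.244 in allogeneic WT, 2.44 ± 0.284 in syngeneic KO and 2.73 ± 0.134 in syngeneic WT. For both ratios the adjusted p of the exact permutation tests was at least 0.2. Ratios of Rad21 to the arms of the ring and of Wapl to Rad21 were added after seeing the data and have no test. Rad21 over Smc3 was 3.50 ± 0.715 in allogeneic KO, 3.47 ± 0.426 in allogeneic WT, 2.65 ± 0.286 in syngeneic KO and 2.29 ± 0.123 in syngeneic WT. Rad21 over Smc1a was 1.93 ± 0.408 in allogeneic KO, 1.80 ± 0.270 in allogeneic WT, 1.16 ± 0.100 in syngeneic KO and 1.11 ± 0.0992 in syngeneic WT. Wapl over Rad21 was 0.324 ± 0.0819 in allogeneic KO, 0.428 ± 0.0287 in allogeneic WT, 0.459 ± 0.0736 in syngeneic KO and 0.707 ± 0.0535 in syngeneic WT. Libraries of allogeneic KO, allogeneic WT and syngeneic KO overlapped in this ratio, and the 3 syngeneic WT libraries lay above the other 9. This ratio joins the 2 called genes, Wapl lower in syngeneic KO and Rad21 higher in allogeneic cells. Its separation therefore restates those differences and is no separate observation.

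**Figure D4:**
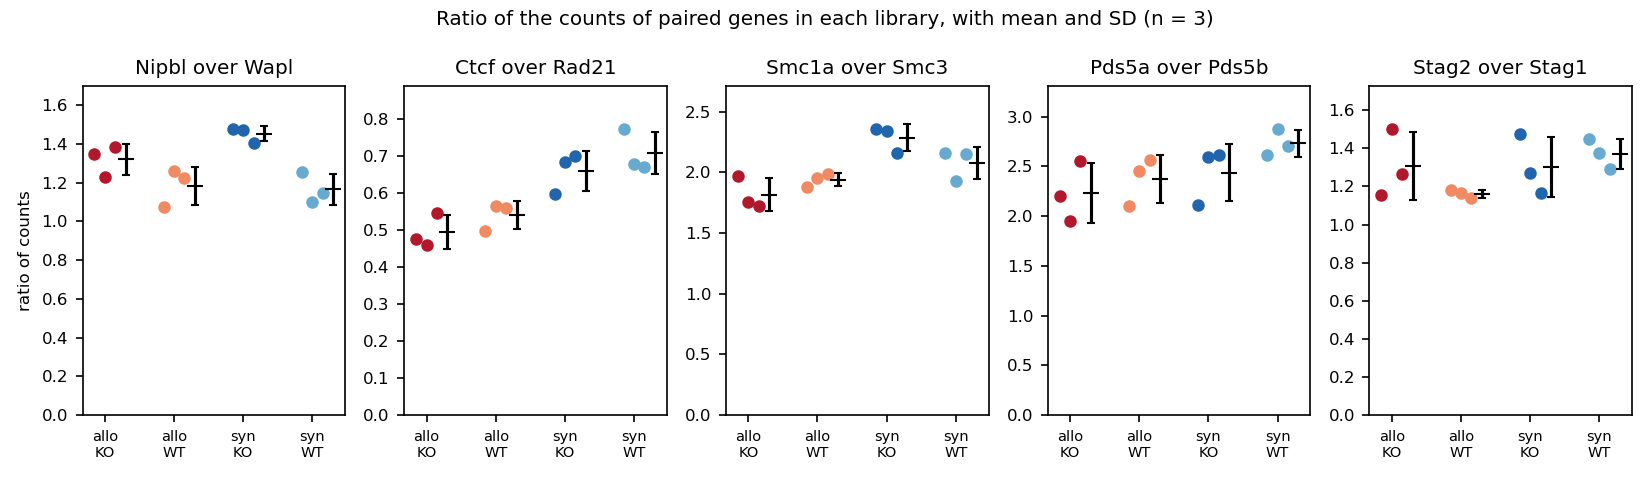
Ratio of the counts of 2 partner genes in each library (points), with group mean and SD (n = 3), in the order allogeneic KO, allogeneic WT, syngeneic KO, syngeneic WT. Nipbl over Wapl has its highest mean in syngeneic KO, 1.45, and Ctcf over Rad21 its lowest in allogeneic KO, 0.495.

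Other genes that act on cohesin or at loop ends were taken as a list of 25, of which 24 were in the table and 22 were tested. Smc1b and Rad21l, the meiotic counterparts of Smc1a and Rad21, were not. Between KO and WT, 0 of the 22 were called by edgeR in allogeneic cells, in syngeneic cells or on average, and 1, 0 and 2 had an unadjusted p under 0.05. Over all tested genes 0.0542%, 3.37% and 2.09% were called, and 771, 2578 and 2860 of 18447 had an unadjusted p under 0.05. DESeq2 called 0 of the 22 in each, beside 0.311%, 4.93% and 4.51% of all genes it tested. Their median log2 fold change was 0.11 in allogeneic cells and −0.01 in syngeneic cells. In allogeneic against syngeneic cells, averaged over genotypes, 2 rose, 4 fell and 16 were not called, beside 46.4% called of all tested genes. The 6 calls became 3 without allogeneic KO replicate 2, without syngeneic KO replicate 2 or without a filter on low counts, and DESeq2 called 7.

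Pttg1, which encodes securin, the inhibitor that keeps separase from cutting Rad21, rose in allogeneic cells by 0.64 ± 0.11 on the log2 scale (adjusted p = 4.95e-04). It averaged 24.1 ± 4.22 CPM in allogeneic KO and 15.8 ± 3.10 CPM in syngeneic KO, and 21.1 ± 1.43 CPM in allogeneic WT and 13.1 ± 0.176 CPM in syngeneic WT. It was called within each genotype too, with adjusted p of 0.0141 in KO and 0.00545 in WT. Esco1, which acetylates Smc3 and so shields the ring from Wapl, rose by 0.35 ± 0.11 (adjusted p = 0.0158). It averaged 41.5 ± 7.69 CPM in allogeneic KO and 30.8 ± 2.51 CPM in syngeneic KO, and 41.1 ± 2.56 CPM in allogeneic WT and 34.1 ± 5.26 CPM in syngeneic WT.

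The 4 that fell were Stag3, Chtf18, Ddx11 and Top2b. Stag3, a Stag subunit best known from meiosis, fell by 1.25 ± 0.28 on the log2 scale (adjusted p = 0.00324) at low levels, with 0.943 ± 0.319 CPM in allogeneic KO and 1.93 ± 1.05 CPM in syngeneic KO, and 0.796 ± 0.0769 CPM in allogeneic WT and 2.22 ± 0.518 CPM in syngeneic WT. Chtf18, part of a clamp loader used for cohesion, fell by 0.30 ± 0.11 (adjusted p = 0.0465). Ddx11, a helicase that helps to set up cohesion, fell by 0.30 ± 0.10 (adjusted p = 0.0285), and Top2b, a topoisomerase found at loop ends, by 0.24 ± 0.08 (adjusted p = 0.0254). Within a genotype, Esco1 (adjusted p = 0.0514 in KO and 0.181 in WT), Chtf18 (0.176 and 0.195), Ddx11 (0.170 and 0.111) and Top2b (0.214 and 0.0733) were called in neither. Stag3 was called in WT (adjusted p = 0.0139) and not in KO (0.0804), and the difference between them was not called (adjusted p = 1.00).

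**Figure D5:**
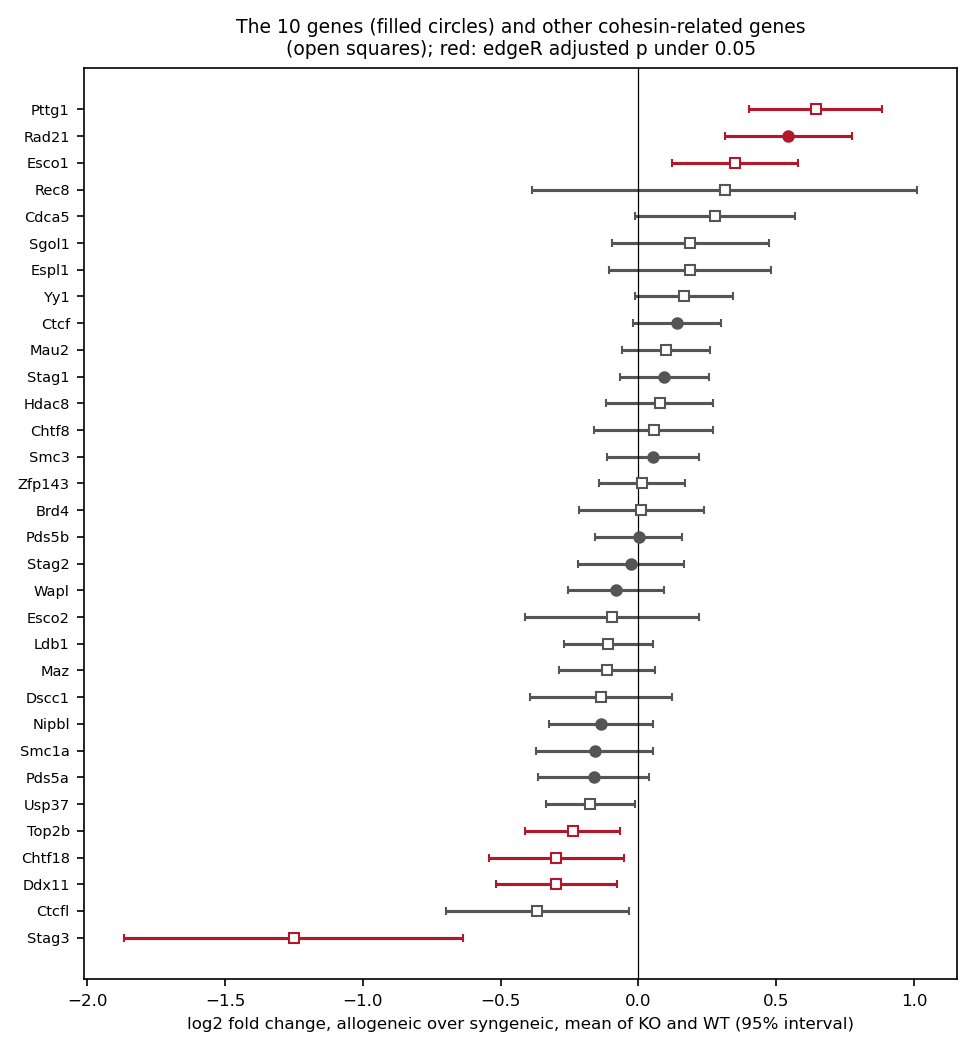
Log2 fold change of allogeneic over syngeneic cells, averaged over KO and WT, with 95% intervals (edgeR). Filled circles are the 10 genes, and open squares are the 22 tested genes of the wider list. Red marks an adjusted p under 0.05: Rad21 (0.54) and 6 of the wider list, with Pttg1 at 0.64 and Stag3 at −1.25.

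Likeness to Wapl was measured as the root mean square difference of centred log2 CPM over the 12 libraries, among 10051 genes averaging 5 CPM or more. The 5 nearest named genes were Picalm (0.0879), Fnip1 (0.0934), Zcchc6 (0.0970), Fam53b (0.0979) and Rnf10 (0.0994), against a median of 0.378 over all genes ranked. Picalm averaged 192 CPM in allogeneic KO, 198 CPM in allogeneic WT, 173 CPM in syngeneic KO and 236 CPM in syngeneic WT. Of the other 9 genes followed here, Nipbl was nearest to Wapl, at rank 73 (0.149), followed by Pds5a at rank 691 and Smc3 at rank 1338. Rad21 was farthest, at rank 6687 (0.451). A gene with no variation would differ from Wapl by about Wapl's own spread, an SD of 0.221. Pds5a, at 0.211, and the genes followed here that rank after it were not clearly nearer than that. Their ranks thus also reflect how little a gene varied. The 12 libraries share their groups and their sequencing depth across genes, so these ranks describe the pattern over these libraries alone.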

How the data were processed

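The values are estimated counts of reads for each gene, as the authors deposited them, and were taken as unscaled, since library totals differ and 94.5 to 95.0% of a library's values are whole. Per the submitters' processing notes, the build was GRCm38 and the tools included Cuffdiff 2.2.1, Cufflinks, TopHat2 2.0.13 and Bowtie2 2.2.1. The tool that made the counts, the annotation and the strand setting are not given in the sources used here. Another 6 columns with the prefix allo matched no sample by name and were not used, and naive samples were not analysed here.

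Counts were rounded. A model of the 4 group means was fitted to 12 libraries with edgeR 4.0.16 (R 4.3.3, limma 3.58.1): TMM scaling, filterByExpr (count minimum 10, 18447 of 46073 genes kept), a robust quasi-likelihood fit with 8 residual degrees of freedom, and two-sided F tests with Benjamini-Hochberg adjustment, called under 0.05. Standard errors are the log2 fold change over the square root of F. Between-group values are CPM, means ± SD. Ratios were tested by exact permutation. DESeq2 1.42.0 was an alternative, with other scaling, no filter, a replicate block, groups fitted alone and each library left out. The procedure was tested on simulated data. No 2 libraries of the same group agreed within sampling noise.

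The members and lists were chosen with earlier results of these data known. All 10 members are named, then the called genes of the wider list with Mau2, and the 5 genes nearest to Wapl. Residuals of same-numbered syngeneic KO and WT libraries correlated at r between 0.170 and 0.545, and those of differently numbered ones at −0.501 to 0.363. The labels state no pairing, and the main model used none, with the replicate block as an alternative. Same-numbered allogeneic KO and WT libraries had r between −0.137 and 0.184. Positions are from GENCODE M21 on GRCm38, and promoters from RefSeq on GRCm38.p6.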

Additional observations from a re-analysis of the deposited data

How the results depend on the processing

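Of 1318 alternative values for 87 results, 1225 kept their direction and their side of the threshold. The count of the 10 genes called for KO over WT was 0, against 1, without a filter on low counts and with the replicate block, in syngeneic cells and on average, and 0 when the syngeneic groups were fitted alone. Fitted alone, the WT groups gave 2 called for allogeneic over syngeneic and the KO groups gave 0, against 1 each. Leaving out 1 library gave 0 to 1 called for KO over WT in syngeneic cells and on average, and for allogeneic over syngeneic 0 to 2 in KO, 0 to 1 in WT and 1 to 2 on average. Some log2 values changed sign when 1 library was left out. For KO over WT in syngeneic cells they ranged from −0.0036 to 0.13 for Stag1 and −0.16 to 0.062 for Stag2. Ctcf ranged there from −0.0036 to 0.080. For KO over WT in allogeneic cells they ranged from −0.026 to 0.26 for Smc1a and −0.13 to 0.079 for Nipbl. For allogeneic over syngeneic they ranged from −0.10 to 0.14 for Pds5a, −0.30 to 0.033 for Smc1a and −0.16 to 0.093 for Nipbl in KO, and from −0.038 to 0.053 for Pds5b and −0.059 to 0.059 for Stag2 on average. Pds5b was also at −0.000774 with the block and at −0.00553 without erythroid and ribosomal RNA genes. The difference between settings ranged from −0.12 to 0.20 for Smc1a, −0.055 to 0.20 for Rad21, −0.022 to 0.11 for Stag1 and −0.058 to 0.10 for Ctcf. Log2 ratios ranged from −0.011 to 0.085 for Stag2 over Stag1 and −0.0094 to 0.041 for Smc1a over Smc3 (KO over WT). Leaving out 1 library took 3 ratios under the threshold, in ranges of −0.25 to −0.20 for Smc1a over Smc3 and −0.44 to −0.37 for Ctcf over Rad21 (allogeneic over syngeneic) and 0.20 to 0.26 for Nipbl over Wapl. The causes were not tested.

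Calls over all genes ran from 260 to 1287 against 622 for KO over WT in syngeneic cells, 3 to 75 against 10 in allogeneic cells, 187 to 914 against 386 on average, 2669 to 5397 against 4500 for allogeneic over syngeneic in KO, and 28 to 296 against 88 for the difference between settings. The labels do not state that replicate numbers pair libraries, and the main model did not pair them. The block changed no other call among the 10 genes. With 3 libraries a group, the width of the 95% intervals, not counting depth, limits these comparisons.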
